A study of Homo sapiens with 6 samples.

Results

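HMGA1, HMGA2, IGF2BP1, IGF2BP2, IGF2BP3 and LIN28B are 6 oncofetal genes, made in the embryo, mostly silent in adult tissue and often made again in tumours, and they are known as targets of the microRNA let-7. They were taken by symbol from an expression table of 17468 genes. All 6 were found, and all 6 belong to the 11129 genes whose mean FPKM reached 1, the set in which tests were made. FPKM counts fragments for each kilobase of a transcript relative to library size, so transcript length and read depth are allowed for. It stays relative to the makeup of each library, and the summed FPKM ran from 589256 to 710498 over the libraries used here. Levels are compared between libraries with that limit.

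The study profiled RNA from 2 human melanoma cell lines, A375 and Colo800, after infection with viruses that carry a short hairpin RNA. One hairpin was scrambled, and the other two, ETV1-sh1 and ETV1-sh2, target the ETS-family transcription factor ETV1. The design text states duplicate infections and RNA taken 4 days later. The table used here has 1 column per line and hairpin, 6 in all, and how the duplicates enter a column is not stated. The samples' treatment field also names DMSO for ETV1-sh1, 5 nM trametinib (a MEK inhibitor) for ETV1-sh2 and 1 uM vemurafenib (a BRAF inhibitor) for the scrambled hairpin, with 48 hours of siRNA and 8 hours of drug in the protocol. The design text names no drug. If those labels hold, drug and hairpin cannot be told apart in any comparison between hairpins, ETV1-sh2 against ETV1-sh1 included. Each line is a single established cell line, so differences between lines are differences between these lines only.

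The products of these genes act in a linked set of steps. let-7 is a family of small RNAs that bind the 3′ untranslated region (UTR) of target transcripts and lower their stability and translation. LIN28B is an RNA-binding protein that blocks the processing of let-7 precursors, and its own transcript is a let-7 target. The IGF2BP proteins bind transcripts in the cytoplasm and shield them from decay. The HMGA proteins bind AT-rich DNA through AT-hook motifs and bend it, and HMGA2 is the textbook let-7 target. In melanoma, HMGA2 and the IGF2BP genes are known as genes of tumour growth and spread.

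The let-7 sequences are shown because they define what these genes share. Each is written 5′ to 3′ from RefSeq (GRCh38.p14), with the seed, bases 2 to 8, in capitals.
let-7a: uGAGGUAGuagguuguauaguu
let-7d: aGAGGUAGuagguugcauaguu
let-7i: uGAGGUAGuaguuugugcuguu
miR-98: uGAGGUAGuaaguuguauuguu
The seed was identical in all 9 mature sequences of the family that were matched (let-7a to let-7g, let-7i and miR-98), and these RNAs differ only outside it.

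The seed pairs with the 7 bases CTACCTC. This motif was searched on the transcript strand of annotated 3′ UTRs (GENCODE release 29), using for each gene the transcript with the longest 3′ UTR. It was present in 9.94% of the 16638 genes of the table that had such a UTR. IGF2BP1 had 4 matches in 6206 bases, LIN28B had 4 in 4549 bases, and HMGA1, IGF2BP2 and IGF2BP3 had 1 each. Only 3 genes of the table had more matches than IGF2BP1 and LIN28B under this choice. HMGA2 had 0 in the 7421-base UTR of the transcript so chosen, and 4 in the 3003-base UTR of another coding transcript (ENST00000403681.6), a choice made after that 0 was seen. Other genes with a UTR of 0.8 to 1.25 times the length were set beside each member. At least 4 matches were held by 3 of 833 such genes for IGF2BP1 and 2 of 1421 for LIN28B. For the HMGA2 transcript with 4 it was 1 of 2099. At least 1 match was held by 30.3%, 23.9% and 15.4% of these genes. For HMGA1, IGF2BP2 and IGF2BP3, with 1 match each, that share was 8.53%, 11.3% and 12.3%. LIN28B had 1 match when the transcript with the longest coding sequence was used. A match is a description of the sequence and not a measured binding site, and mature let-7 levels were not analysed here.

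The following windows hold matches of the 2 HMGA genes, LIN28B and the 3 IGF2BP genes, with the match in capitals. They are shown so that the context of the shared motif can be compared.
HMGA2, bases 21 to 27 after the stop codon: gccaacgttcgatttCTACCTCagc
HMGA2, bases 2521 to 2527: aatcaaaacacactaCTACCTCtta
HMGA1, bases 960 to 966: tcctctgttcacaaaCTACCTCtgg
LIN28B, bases 44 to 50: acccggttgcaaagtCTACCTCatg
IGF2BP1, bases 1632 to 1638: tgtgtgcgaagtaaaCTACCTCaag
IGF2BP2, bases 1304 to 1310: aacacacagaagaagCTACCTCagg
IGF2BP3, bases 560 to 566: tgcatttttactcaaCTACCTCagg

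Across the 6 libraries, 10418 to 11013 genes had an FPKM of at least 1. ETV1 itself was at 41.8% of its scrambled level under ETV1-sh1 and 4.18% under ETV1-sh2 in A375, and at 30.3% and 5.43% in Colo800, in the direction of the labels. The melanocyte regulator SOX10 was at 353 to 712 FPKM in all libraries. The pigment genes TYR and DCT were at most at 0.0758 FPKM in A375 and between 14.8 and 125 FPKM in Colo800. The melanocyte markers MLANA and TYRP1 were low in both lines, at 0.286 to 0.604 FPKM in A375 and 0.510 to 1.85 in Colo800. MITF was at 8.61 to 12.6 FPKM in A375 and 38.4 to 116 in Colo800. S100B was at 118, 39.4 and 51.5 FPKM in A375 under the scrambled hairpin, ETV1-sh1 and ETV1-sh2, and 305, 83.9 and 160 in Colo800. In limma S100B fell under ETV1-sh1 (log2 change -1.70, adjusted p = 0.0197) and under ETV1-sh2 (-1.06, adjusted p = 0.0194). Over all genes, 1.51% and 9% were called lower. MITF, SOX10, TYR, DCT and TYRP1 were not called with either hairpin. PMEL, also on that list, was not analysed here. Of the markers of other cell types, 3 of 6 fibroblast, 2 of 6 keratinocyte, 2 of 6 leukocyte, 2 of 6 epithelial and 2 of 4 endothelial genes had a mean FPKM of at least 1. The summed FPKM of the 6 fibroblast genes was 13.1, 15.6 and 34.7 in A375 under the scrambled hairpin, ETV1-sh1 and ETV1-sh2, and 9.78, 10.7 and 29.7 in Colo800. Of these genes COL1A1, PDGFRB and LUM rose under ETV1-sh2 in limma (adjusted p = 0.00906, 0.0213 and 0.0294), at no more than 14.0 FPKM in any library. The summed leukocyte genes were at 99.0 to 99.8 FPKM in the other two A375 libraries and 327 in A375 under ETV1-sh2, of which CD68 made up 306, and at 77.9 to 140 in Colo800, lowest under ETV1-sh2. The part of these markers in the ETV1-sh2 results was not tested. With 1 library per line and hairpin there is no error for a single level. In bulk RNA, fewer cells with a transcript and less transcript per cell cannot be told apart.

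HMGA2 (ENSG00000149948) was lower with both ETV1 hairpins in both lines, and it was the only one of the 6 genes to be at least 2-fold lower, on the log2(FPKM + 1) scale, in all 4 hairpin libraries. Its FPKM in A375 was 779 under the scrambled hairpin, 318 under ETV1-sh1 and 284 under ETV1-sh2. In Colo800 it was 365, 159 and 124. With each hairpin the A375 level lay above the Colo800 level, and in each line both ETV1 libraries lay below the scrambled one. The level left under ETV1-sh1 was 40.8% of scrambled in A375 and 43.4% in Colo800, and under ETV1-sh2 it was 36.5% and 34.0%. A drop of at least 2-fold in all 4 libraries was found for 26 genes, 0.234% of those tested.

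The fit with 3 hairpin levels and the cell line, in limma, gave HMGA2 a log2 change of -1.24 (SE 0.151, adjusted p = 0.0262) for ETV1-sh1 against scrambled and -1.50 (SE 0.151, adjusted p = 0.00806) for ETV1-sh2, on the log2(FPKM + 1) scale used for all changes here. HMGA2 therefore fell with each hairpin. Under ETV1-sh1 it was the 1 member called, against a background of 2.28% of all genes called in either direction and 1.51% called lower. ETV1-sh2 called 16.7% of all genes, 9% lower and 7.73% higher. The difference between the hairpins in HMGA2 was -0.26 (SE 0.151, adjusted p = 0.281), while ETV1 itself differed between them by -2.68 (SE 0.204, adjusted p = 0.00553). For both hairpins together against scrambled, no gene of the 11129 passed in limma (0%), with 567 genes lower and 637 higher at an unadjusted p under 0.05. HMGA2 was among the former, at -1.37 (SE 0.191, unadjusted p = 0.000264, adjusted p = 0.263). This fit counts the difference between the hairpins as spread, and ETV1 itself did not pass in it (-2.81, SE 0.938, adjusted p = 0.414). For HMGA2 the difference of the hairpin effect between the lines was -0.004 (SE 0.473, adjusted p = 1.00), a comparison in which limma called no gene (0%, with 24 lower and 42 higher at an unadjusted p under 0.05). The hairpins are pooled there as well, and the SE of ETV1 was 2.06.

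The calls for HMGA2 rest on few libraries. With no filter on low values its adjusted p in limma was 0.223 under ETV1-sh1 and 0.104 under ETV1-sh2. For ETV1-sh1 it was 0.151 without the A375 scrambled library, 0.143 without the Colo800 one, and 0.190 and 0.240 without the A375 or the Colo800 ETV1-sh1 library. For ETV1-sh2 it was 0.0562 without the A375 scrambled library. Over the 13 alternatives tried for each hairpin, the change itself lay between -1.31 and -1.17 under ETV1-sh1 and between -1.57 and -1.43 under ETV1-sh2.

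**Figure D1:**
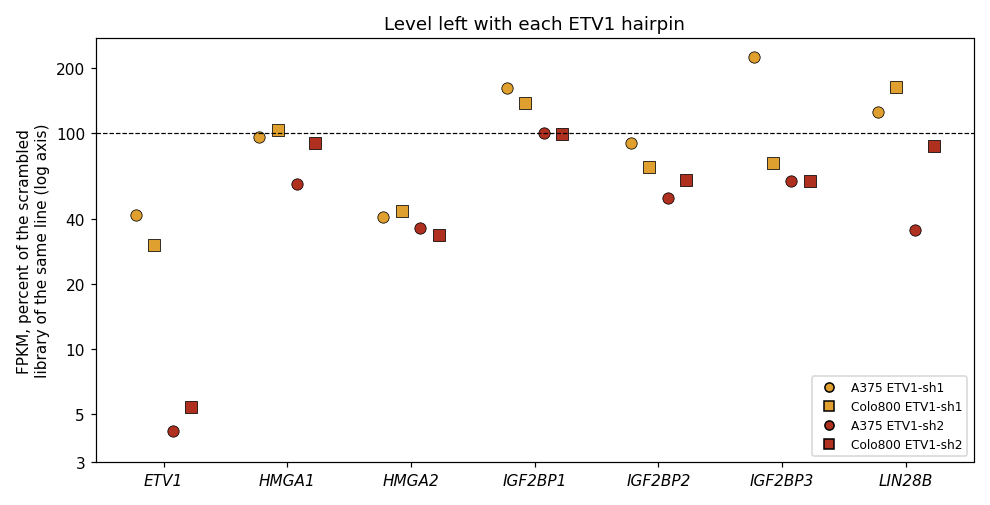
FPKM of ETV1 and the 6 oncofetal genes with an ETV1 hairpin, as a percent of the scrambled library of the same line (log axis). Points are single libraries, circles A375 and squares Colo800; HMGA2 lies between 34.0% and 43.4% in all 4 libraries, whereas IGF2BP3 under ETV1-sh1 is at 226% in A375 and 73.1% in Colo800.

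HMGA1 (ENSG00000137309), the HMGA paralogue that is made more widely in dividing cells, was not called with either hairpin. Its FPKM was 567, 546 and 330 in A375 under the scrambled hairpin, ETV1-sh1 and ETV1-sh2, and 950.05, 984 and 858 in Colo800. The A375 ETV1-sh2 library was the low one, at 58.1% of scrambled, and the other 3 hairpin libraries were at 90.3% to 104%. The fitted change was -0.46 under ETV1-sh2 (SE 0.200, adjusted p = 0.154 in limma) and -0.002 under ETV1-sh1 (SE 0.200). GENCODE lists 8 pseudogenes of HMGA1, and reads shared with those near copies cannot be separated in this table.

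The makeup of the HMGA pair differed between the lines. HMGA2 was 1.37 times as high as HMGA1 in the A375 scrambled library and 0.385 times as high in the Colo800 scrambled library. Under ETV1-sh1 these ratios of FPKM were 0.582 and 0.161, and under ETV1-sh2 0.863 and 0.145. The summed FPKM of the pair was 1347 in A375 scrambled and 1315 in Colo800 scrambled. Under ETV1-sh2 the sum stood at 45.6% of scrambled in A375 and 74.7% in Colo800.

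**Figure D2:**
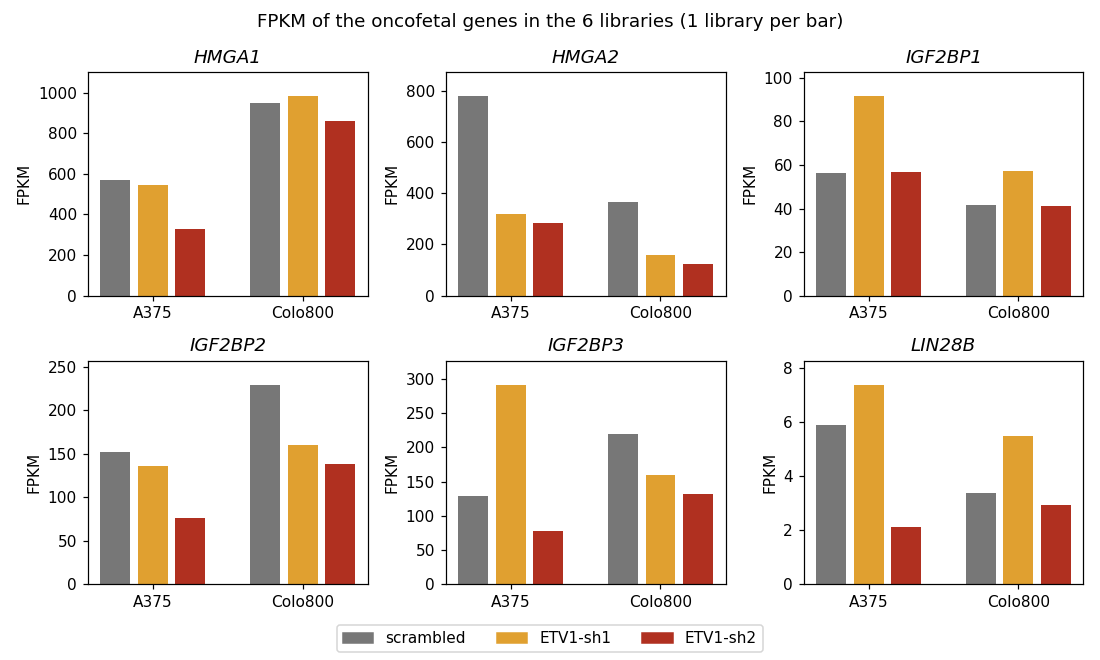
FPKM of each oncofetal gene (y axes from 0, a scale of its own for each) in the 6 libraries, 1 bar per library, grouped by line and coloured by hairpin. HMGA2 is highest in both lines under the scrambled hairpin, and IGF2BP1 and LIN28B are highest in both lines under ETV1-sh1.

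IGF2BP2 (ENSG00000073792) was the second member called under ETV1-sh2. This RNA-binding protein, unlike its paralogues, is also made in adult tissues. Its FPKM was 152 in A375 scrambled, 136 under ETV1-sh1 and 76.4 under ETV1-sh2, and 229.6, 159.8 and 139 in Colo800. It was lower than scrambled in all 4 hairpin libraries, as HMGA2 was and as 16.8% of all genes tested were. The log2 change was -0.85 under ETV1-sh2 (SE 0.193, adjusted p = 0.0340) and -0.34 under ETV1-sh1 (SE 0.193, adjusted p = 0.401). In limma without the variance trend the adjusted p under ETV1-sh2 was 0.0503, and with no filter on low values 0.156. It was 0.169 without the A375 scrambled, 0.126 without the A375 ETV1-sh2 and 0.174 without the Colo800 scrambled library.

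IGF2BP3 (ENSG00000136231), which is silent in most adult tissues, was above its scrambled level in A375 and below it in Colo800 under ETV1-sh1, each in 1 library. In A375 it was at 129 FPKM under the scrambled hairpin, 291 under ETV1-sh1 and 77.3 under ETV1-sh2. In Colo800 the values were 219, 160.2 and 132. The A375 ETV1-sh1 library alone was above its scrambled control, by 2.26-fold, while the other 3 hairpin libraries were at 59.9% to 73.1%. The fitted change of 0.36 under ETV1-sh1 (SE 0.400, adjusted p = 0.668 in limma) averages these opposite directions, and was -0.45 without the A375 ETV1-sh1 library. Over both hairpins, the effect in Colo800 minus that in A375 was -0.81 (adjusted p = 1.00), and the line difference under ETV1-sh1 minus that in the other libraries was -1.62 (SE 0.230, unadjusted p = 0.00155, adjusted p = 0.858). The latter fit was added after seeing the data and left 1 residual degree of freedom, and limma called no gene in it (0%, with 265 lower and 282 higher at an unadjusted p under 0.05). For ETV1-sh2 against scrambled, the fitted change of IGF2BP3 was -0.73 (SE 0.400, adjusted p = 0.240 in limma).

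IGF2BP1 (ENSG00000159217), the third paralogue and the one named for binding the coding region of MYC mRNA, was the lowest of the family. Its FPKM was 56.5, 91.7 and 56.8 in A375 under the scrambled hairpin, ETV1-sh1 and ETV1-sh2, and 41.5, 57.5 and 40.97 in Colo800. Under ETV1-sh1 it stood at 162% of scrambled in A375 and 138% in Colo800, and under ETV1-sh2 at 101% and 98.6%. The log2 change under ETV1-sh1 was 0.57 (SE 0.160, unadjusted p = 0.0107), and the adjusted p of 0.132 in limma missed the threshold.

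The share of IGF2BP3 among the 3 IGF2BP genes stood apart in 1 library. It made up 36.7% to 44.7% of their summed FPKM in the other 5, and 56.1% in A375 under ETV1-sh1. In that library the sum was 519 FPKM against 337 in the A375 scrambled library. Under ETV1-sh2 the sum was 62.4% of scrambled in A375 and 63.6% in Colo800. IGF2BP1 contributed 8.47% of the sum in Colo800 scrambled, its lowest share, and 27.0% in A375 under ETV1-sh2, its highest.

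**Figure D3:**
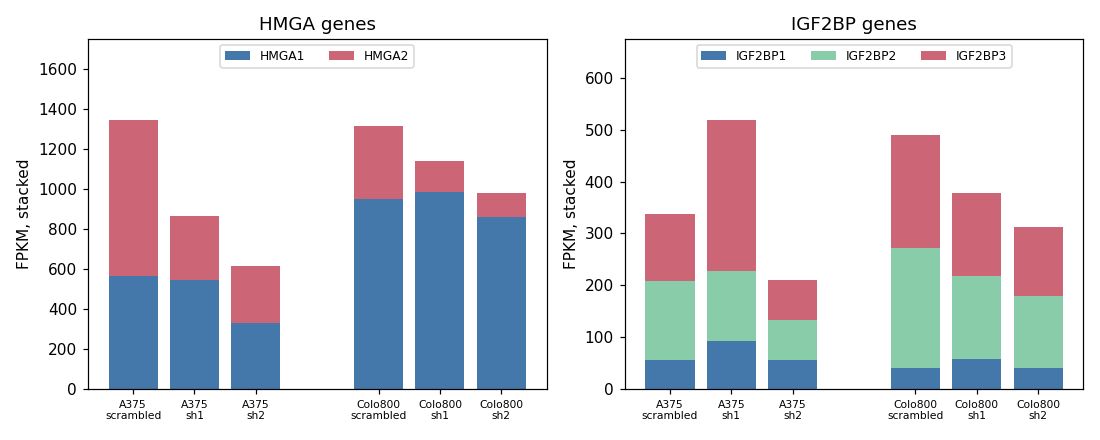
Stacked FPKM of the HMGA genes (left) and the IGF2BP genes (right) in the 6 libraries, with the y axes from 0. The HMGA2 segment is smaller with either ETV1 hairpin in both lines, and the IGF2BP3 segment is largest in A375 under ETV1-sh1, at 291 FPKM.

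LIN28B (ENSG00000187772), the blocker of let-7 processing, was made at a low level. Its FPKM was 5.89, 7.37 and 2.10 in A375 under the scrambled hairpin, ETV1-sh1 and ETV1-sh2, and 3.36, 5.49 and 2.92 in Colo800. In each line the order was the same, ETV1-sh1 above scrambled above ETV1-sh2. LIN28B ranked above 42.0% to 56.7% of all genes in the table, whereas HMGA1 ranked above at least 98.8% in each library. Its log2 change was 0.43 under ETV1-sh1 (SE 0.285, adjusted p = 0.469) and -0.65 under ETV1-sh2 (SE 0.285, adjusted p = 0.157), neither past the threshold in limma. Over the 12 alternatives tried, the latter lay between -1.08, without the Colo800 ETV1-sh2 library, and -0.228. It passed the threshold in 1 of these 12. At such levels the log2(FPKM + 1) scale understates a change.

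Set against each other, ETV1-sh2 was below ETV1-sh1 for all 6 genes in the fit, with none called. By the treatment labels this comparison also sets 5 nM trametinib against DMSO, and these cannot be told apart. The median log2 difference of ETV1-sh2 from ETV1-sh1 was -0.55 over the 6 genes and 0.05 over all genes tested, of which 46.2% were negative. LIN28B was at -1.08 (SE 0.285, adjusted p = 0.0547), IGF2BP3 at -1.09 (SE 0.400, adjusted p = 0.117) and IGF2BP1 at -0.58 (SE 0.160, adjusted p = 0.0608). HMGA1 was at -0.46 (adjusted p = 0.165) and IGF2BP2 at -0.51 (adjusted p = 0.123). In this comparison limma called 13.7% of all genes. Over the alternatives tried, the difference lay between -1.51 and -0.603 for LIN28B and between -1.90 and -0.279 for IGF2BP3. LIN28B passed the threshold in 1 of 11 alternatives and IGF2BP3 in 1 of 12. The median against scrambled was 0.18 under ETV1-sh1, with 3 genes on each side of 0, beside 49.8% of all genes tested below 0. Under ETV1-sh2 it was -0.69, with all 6 below 0, beside 46.6% of all genes. Of these signs, HMGA1 under ETV1-sh1 (-0.002) and IGF2BP1 under ETV1-sh2 (-0.006, adjusted p = 0.983 in limma) were almost at 0. The latter turned in 2 of 13 alternatives. The 3 comparisons share libraries.

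**Figure D4:**
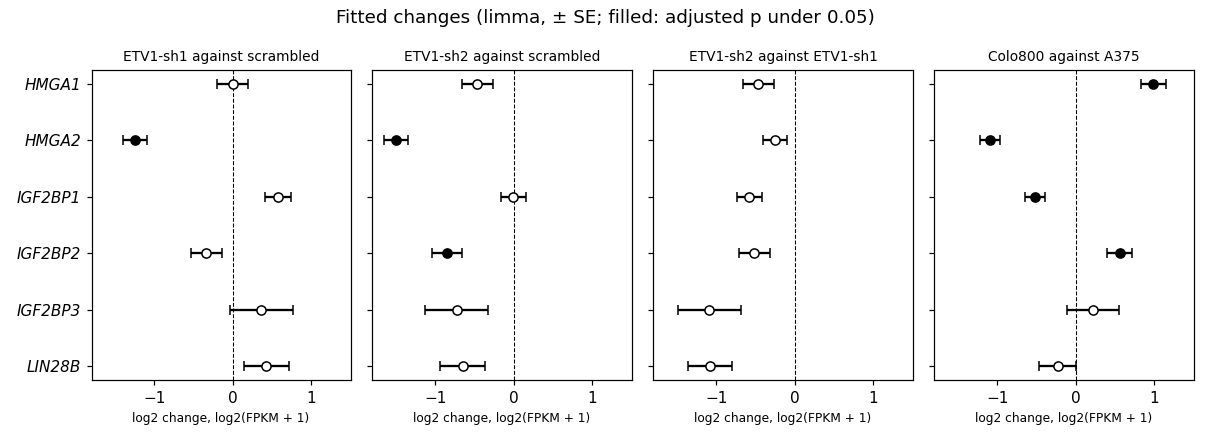
Fitted log2 changes of the 6 genes on the log2(FPKM + 1) scale (x axes; bars are ± SE from limma; filled points have an adjusted p under 0.05). HMGA2 is filled in both hairpin panels and IGF2BP2 under ETV1-sh2, and in the panel of ETV1-sh2 against ETV1-sh1 all 6 points lie below 0 with none filled.

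Between the lines, 4 of the 6 genes differed. In limma 57.1% of all genes did, 25.3% lower and 31.8% higher in Colo800, so the count itself is near the background. HMGA1 was higher in Colo800 by 0.99 on the log2 scale (SE 0.164, adjusted p = 0.00326), and HMGA2 was lower by 1.09, a log2 change of -1.09 (SE 0.123, adjusted p = 0.000847). HMGA1 was higher in each of the 3 Colo800 libraries than in any of the 3 A375 libraries, a pattern held by 26.2% of the genes tested. HMGA2 overlapped between the lines, since Colo800 scrambled, at 365 FPKM, lay above both A375 hairpin libraries. IGF2BP1 was lower in Colo800 (-0.52, SE 0.131, adjusted p = 0.0155) and IGF2BP2 higher (0.56, SE 0.158, adjusted p = 0.0235).

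Those last calls were lost in several fits. The adjusted p of IGF2BP1 in limma was 0.0680 without the A375 scrambled library, 0.0668 without the Colo800 scrambled library, 0.0627 without A375 ETV1-sh1 and 0.0607 without Colo800 ETV1-sh1. That of IGF2BP2 was 0.104 without the A375 scrambled library, 0.103 without the Colo800 scrambled library, 0.0847 without A375 ETV1-sh2, 0.0844 without Colo800 ETV1-sh2 and 0.0924 with no filter on low values. IGF2BP3 (0.22, SE 0.327) and LIN28B (-0.23, SE 0.232) were not called. For IGF2BP3 the ratio of Colo800 to A375 was 1.70 under the scrambled hairpin, 0.550 under ETV1-sh1 and 1.71 under ETV1-sh2. Without the A375 ETV1-sh1 library the line difference of IGF2BP3 was 0.76 with an adjusted p of 0.0158, and without the Colo800 ETV1-sh1 library it was 0.76 with an adjusted p of 0.0151.

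Genes with a profile like that of a member were found by the root mean square distance between mean-centred log2(FPKM + 1) values over the 6 libraries, as a description. Nearest to HMGA2 were the growth factor GDF11 at 0.23, the stress gene GADD45A at 0.24 and the cytoplasmic poly(A)-binding protein PABPC1 at 0.25, against a median of 0.99 over all other genes. PABPC1 was at 4028, 1354 and 1796 FPKM in A375 and 2251, 828 and 906 in Colo800. HMGA1 lay closest to NOL9 (0.07), SOCS5 (0.09) and SNRPB2 (0.09), and IGF2BP2 to PHLDB2 (0.05), NUP155 (0.08) and the splicing factor HNRNPH1 (0.09). For IGF2BP1 the nearest were MYH13 (0.07), DCTN2 (0.07) and CHM (0.08).

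For IGF2BP3 the nearest were the nuclear receptor NR2F2 at 0.16, C1orf198 at 0.19 and the ETS factor ETS1 at 0.21. NR2F2 was at 27.1, 47.5 and 16.4 FPKM in A375 and 47.5, 35.5 and 28.96 in Colo800, so among the A375 libraries it too was highest under ETV1-sh1. LIN28B was nearest to C15orf52 (0.08), the deubiquitinase USP15 (0.08) and TGIF2 (0.12). Among the 6 genes themselves, HMGA1 and IGF2BP2 were the closest pair at 0.29, and HMGA1 and HMGA2 the farthest at 1.19.

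The pathway genes around the members were taken from 8 lists. With either single hairpin 28 gene calls were made in them, none of which changed direction in any alternative. A gene on more than 1 list is counted once per hairpin here. The ETV1-sh1 calls were TNRC6A, NRAS, PABPC1 and HMGN1, and the rest were made under ETV1-sh2. Over all genes tested, limma called 2.28% with ETV1-sh1 and 16.7% with ETV1-sh2. With no filter on low values all 28 were lost in limma, and MYC under ETV1-sh2 was the 1 call kept with each library left out in turn. Without the A375 scrambled library 27 were lost, and without the Colo800 scrambled library 24. Leaving out ETV1-sh1 lost 16 calls in A375 and 16 in Colo800, and leaving out ETV1-sh2 lost 12 and 6.

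The genes that process let-7 or act with LIN28 came first. Of 15 found in the table, 13 were tested, and TNRC6A was the 1 called with each hairpin, lower each time. Over all genes, 1.51% were called lower under ETV1-sh1 and 9% under ETV1-sh2. TNRC6A, a scaffold of the microRNA silencing complex, was at 44.4 FPKM in A375 scrambled, 16.5 under ETV1-sh1 and 22.3 under ETV1-sh2, and at 33.8, 11.5 and 20.98 in Colo800 (log2 change -1.43, adjusted p = 0.0272, and -0.81, adjusted p = 0.0333). The median of the list was 0.004 under ETV1-sh1 and -0.14 under ETV1-sh2, against 0.002 and 0.05 over all genes tested. DICER1, which cuts let-7 precursors, was at 8.41, 10.4 and 6.11 FPKM in A375 and 14.2, 12.7 and 9.55 in Colo800. KHSRP, which promotes let-7 maturation, had a change of -0.36 over both hairpins (adjusted p = 0.556). The 2 uridylyl transferases that tag let-7 precursors, ZCCHC11 and ZCCHC6, were not called. LIN28A, the paralogue of LIN28B, was at most at 0.0385 FPKM in any library and listed at 0 in 3. The Argonaute genes and DROSHA were not analysed here.

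Of the other described let-7 targets, 25 were found and 19 tested. Their median was -0.16 under ETV1-sh1, with 12 of 19 below 0, and -0.42 under ETV1-sh2, with 13 of 19 below 0. Over all genes tested the medians were 0.002 and 0.05, with 49.8% and 46.6% below 0. Under ETV1-sh2 5 were called lower and 1 higher, beside 9% and 7.73% of all genes. Under ETV1-sh1 NRAS was the 1 called (log2 change -1.06, adjusted p = 0.0479), beside 1.51% of all genes called lower there. Those called under ETV1-sh2 were MYC, cyclin D1 (CCND1), E2F2, IGF1R and TGFBR1, which fell, and PLAGL2, which rose. CCND1 was at 411, 207 and 76.8 FPKM in A375 and 346, 167 and 139 in Colo800 (-1.86 under ETV1-sh2, adjusted p = 0.0164). PLAGL2, a zinc-finger transcription factor, was at 5.38, 8.19 and 11.8 in A375 and 10.7, 14.96 and 23.2 in Colo800 (1.03, adjusted p = 0.0188). IRS2, an adaptor of the insulin receptor, had a change of -0.82 over both hairpins (adjusted p = 0.379). Over the whole table, genes with none, 1 or at least 2 let-7 matches (9717, 1052 and 146 tested) had medians between -0.001 and 0.06 with either hairpin. The 19 genes with at least 3 matches, which include IGF2BP1 and LIN28B, had a median of 0.17 under ETV1-sh1, -0.14 under ETV1-sh2 and -0.29 for ETV1-sh2 against ETV1-sh1, a description of few genes with no test.

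**Figure D5:**
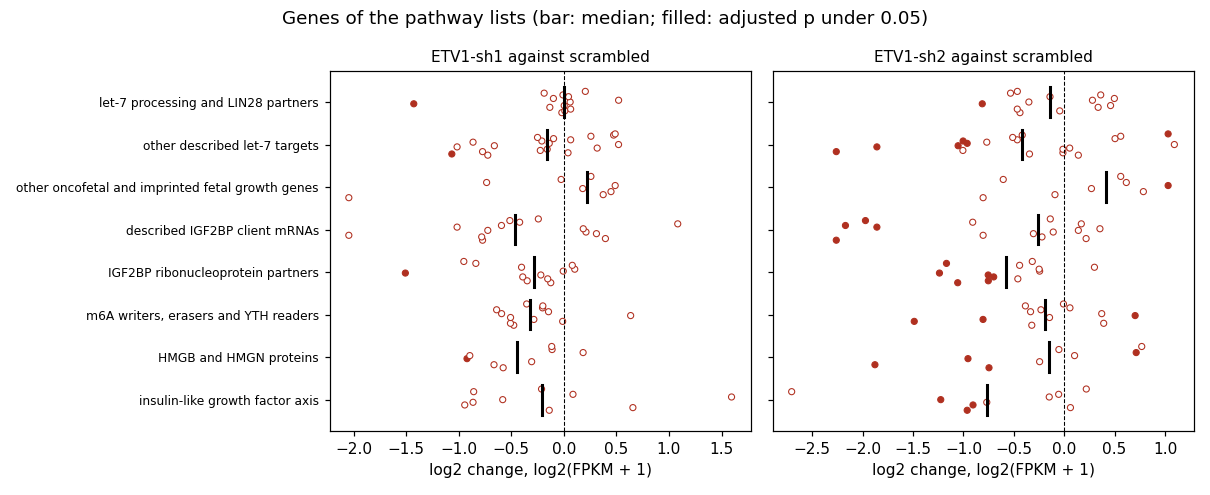
Fitted log2 changes, on the log2(FPKM + 1) scale (x axes), of the tested genes of 8 lists under ETV1-sh1 (left) and ETV1-sh2 (right). Points are genes, filled where the adjusted p from limma was under 0.05, and bars are list medians; 6 of the 12 IGF2BP ribonucleoprotein partners are filled under ETV1-sh2, all below 0.

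Genes of proteins that share ribonucleoprotein particles with the IGF2BP proteins were mostly below 0. All 12 were tested, and 10 were below 0 under ETV1-sh1 and 11 under ETV1-sh2. Of all genes tested, 49.8% and 46.6% were below 0, and 1.51% were called lower under ETV1-sh1. PABPC1 was the 1 called under ETV1-sh1 (-1.51, adjusted p = 0.0197), and under ETV1-sh2 PABPC1, YBX1, HNRNPU, DHX9, ELAVL1 and G3BP2 fell and none rose. The stress granule protein G3BP2 was at 194, 92.0 and 81.0 FPKM in A375 and 215, 141 and 101 in Colo800 (-1.17 under ETV1-sh2, adjusted p = 0.0149). The median of the list was -0.28 under ETV1-sh1 and -0.58 under ETV1-sh2, against 0.002 and 0.05 over all genes tested. The 6 of 12 called lower under ETV1-sh2 stand beside 9% of all genes called lower there, and were 0 to 5 with 1 library left out.

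Of the described client transcripts of the IGF2BP proteins, 17 were found and 14 tested. None was called under ETV1-sh1, and MYC, CCND1, LEF1 and MKI67 fell under ETV1-sh2. These 4 of 14 stand beside 9% of all genes called lower there. Of them, MYC and CCND1 were already counted among the let-7 targets called lower. MYC, the best-known IGF2BP1 client, was at 14.8, 6.38 and 1.76 FPKM in A375 and 52.7, 38.4 and 12.4 in Colo800 (-2.26, adjusted p = 0.00806). Beta-actin (ACTB), whose zipcode the chicken IGF2BP1 protein was found to bind, was at 2116, 3013 and 2243 in A375 and 4577, 5566 and 5832 in Colo800, and was not called. Of 12 genes for the writers, erasers and readers of m6A, the RNA mark that IGF2BP proteins can recognise, none was called under ETV1-sh1. Under ETV1-sh2 the writer subunits WTAP (-1.49) and KIAA1429 (-0.81) fell and the eraser FTO (0.70) rose, with adjusted p-values of 0.0105, 0.0238 and 0.0400. These 2 lower and 1 higher of 12 stand beside 9% and 7.73% of all genes.

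The other high-mobility group proteins, which share the name but not the AT-hooks of the HMGA proteins, were all 8 tested. Under ETV1-sh1 7 of 8 were below 0, and under ETV1-sh2 5 of 8, beside 49.8% and 46.6% of all genes tested. Their medians were -0.44 and -0.15, against 0.002 and 0.05 over all genes tested. HMGN1 fell under ETV1-sh1 (-0.92, adjusted p = 0.0479), beside 1.51% of all genes called lower there. HMGN1, HMGB1 and HMGB2 fell and HMGN3 rose under ETV1-sh2, beside 9% and 7.73% of all genes called lower and higher there. The call of HMGN3 was lost with any of the 6 libraries left out, as were the ETV1-sh2 calls of ELAVL1, FTO, IRS1 and TGFBR1 from the other lists. HMGN1 was at 83.99, 47.1 and 47.5 FPKM in A375 and 145, 71.1 and 67.2 in Colo800. HMGB1 was at 51.5, 34.1 and 27.3 in A375 and 159.5, 107 and 104.8 in Colo800.

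In the insulin-like growth factor axis, the pathway from which the IGF2BP proteins take their name, 12 genes were found and 9 tested. IGF2 itself was at most at 0.557 FPKM in any library. None was called under ETV1-sh1, and IGF1R, IRS1 and IGFBP2 fell under ETV1-sh2 (-0.96, -0.91 and -1.23, with adjusted p = 0.0493, 0.0436 and 0.0341). These 3 of 9 stand beside 9% of all genes called lower there, and IGF1R was already counted among the let-7 targets called lower. IRS1, the receptor adaptor, was at 3.50, 1.71 and 1.84 FPKM in A375 and 11.3, 4.55 and 4.57 in Colo800. Of the other oncofetal and imprinted genes, 14 were found and 8 tested. The 1 called with a hairpin was PLAGL2, given above, beside 7.73% of all genes called higher under ETV1-sh2. PLAG1, its oncogenic paralogue, had a change of 0.62 over both hairpins (adjusted p = 0.455). AFP, GPC3 and SALL4, which mark fetal tissue and some tumours, were below 1 FPKM in every library.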

How the data were processed

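RNA from 6 libraries was sequenced, 1 per cell line and hairpin. The deposited FPKM values were made by the authors on hg19, where the submitters' processing notes list STAR 2.4, Cufflinks 2.2.1 and Cuffnorm. The annotation, any filter, the scaling and whether strand was used are not stated, so reads of genes that overlap HMGA2 (RPSAP52), IGF2BP1, IGF2BP2 (IGF2BP2-AS1), IGF2BP3 (MALSU1) or LIN28B (LIN28B-AS1) on the opposite strand cannot be told apart from theirs. Read depth is unknown, and no interval for a single level can be given. Coordinates are left out because the reference used here (GRCh38) is another build; it served for UTR sequences, matched by Ensembl identifier.

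Tests used limma 3.58.1 (R 4.3.3) on log2(FPKM + 1), with its variance trend, in genes whose mean FPKM reached 1, and with Benjamini-Hochberg adjustment over all of them, with 0.05 as the threshold. Both hairpins against scrambled had the cell line as a block (3 residual degrees of freedom). Single hairpins and lines came from a fit with the line and 3 hairpin levels (2), and the difference between lines from a mean per line and knockdown state (2). The p-values reflect only the spread among these 6 libraries. In the fit with the line and 3 hairpin levels, that spread is how far the hairpin effects differ between A375 and Colo800. No line and hairpin has a second library, so culture and technical spread cannot be told apart from it. The scripts were tested on simulated data. Alternatives were the pseudocount, filter, scaling, trend, block and each library left out.

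The members and lists were chosen with earlier results of these data known. Genes named from a list were the 2 with the largest moderated statistic for both hairpins against scrambled and those that passed there. Other listed genes, among them each gene called with 1 hairpin, DICER1, ACTB, IGF2 and the fetal markers, were picked once their values were known. The 3 nearest profiles per member were named.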

Additional observations from a re-analysis of the deposited data

How the results depend on the processing

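Each line and hairpin has 1 library, so leaving one out left 1 residual degree of freedom, and the lone library of an arm is assumed to vary like the others. The difference between lines could not be fitted without either scrambled library. Read depth is unknown. The libraries carry no replicate numbers and the cell line was the block: without that block HMGA2 stayed at -1.37 over both hairpins with an adjusted p of 1.00, and 0 genes were called lower or higher. The HMGA1 and HMGA2 differences between lines kept their calls in 12 of 12 alternatives.

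With no filter on low values, 0 genes were called with ETV1-sh1, with ETV1-sh2 or between the hairpins, 0 members fell, 1 member was higher in Colo800, and 1 gene was called lower and 1 higher for the difference between lines. With ETV1-sh1 the 168 genes lower and 86 higher became 88 and 32 with a pseudocount of 5, 87 and 32 without the variance trend, and 489 and 316 with scrambled and ETV1-sh1 libraries alone. With ETV1-sh2 the 1002 and 860 became 527 and 363 with scrambled and ETV1-sh2 libraries alone, and 1 member was lower without the trend. The let-7 matches became 1 for LIN28B with the longest coding sequence and 4 for HMGA2 with the transcript holding most, the latter chosen after seeing the data.

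With 1 library left out, genes lower ranged from 0 to 502 and higher from 0 to 332 with ETV1-sh1 (members lower 0 to 1), from 64 to 1058 and from 19 to 916 with ETV1-sh2 (members lower 0 to 3), and from 0 to 891 and from 0 to 848 between the hairpins (members lower 0 to 2). Between the lines they ranged from 1831 to 2523 and from 2546 to 3287 (members lower 1 to 2, higher 1 to 3).

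Directions turned only in values that had not passed the test. Under ETV1-sh1 HMGA1 was at 0.0106 after rescaling. For the difference between lines HMGA2 was at 0.00899 with a pseudocount of 5. The other turns came from leaving out 1 library, over which these values ranged as follows. Under ETV1-sh1, HMGA1 ranged from -0.187 to 0.183 and IGF2BP3 from -0.450 to 1.17. Under ETV1-sh2, IGF2BP1 ranged from -0.0700 to 0.0589. Over both hairpins, LIN28B ranged from -0.437 to 0.240 and IGF2BP3 from -0.650 to 0.219. Between lines, IGF2BP3 ranged from -0.0494 to 0.762. For the difference between lines, HMGA2 ranged from -0.180 to 0.172, IGF2BP1 from -0.470 to 0.212, IGF2BP2 from -0.467 to 0.359, IGF2BP3 from -1.76 to 0.143 and LIN28B from -0.0703 to 1.36. The cause was not tested.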

Other observations

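A few further genes of the lists were not called with any hairpin, and they were chosen after their values were seen. IGFBP3, a secreted binding protein of insulin-like growth factors, was, as IGF2BP3 was, highest among the A375 libraries under ETV1-sh1, at 57.7 FPKM under the scrambled hairpin, 314 under ETV1-sh1 and 35.2 under ETV1-sh2. In Colo800 it was at 1407, 2395 and 1854. The change under ETV1-sh1 was 1.60 (SE 0.570, adjusted p = 0.211 in limma). IGFBP5 was at 44.5, 10.8 and 0.975 FPKM in A375 and 11.6, 13.8 and 5.84 in Colo800.

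H19, an imprinted fetal RNA described to bind let-7, was at 2.63, 0.901 and 0.239 FPKM in A375. In Colo800 it was at 48.7 under the scrambled hairpin, 4.57 under ETV1-sh1 and 46.7 under ETV1-sh2, so that 1 library stood apart from the other 2. PEG10, an imprinted gene of retrotransposon origin, was at 1.25 to 2.75 FPKM in A375 and 116.8, 149.8 and 61.3 in Colo800.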
